A study of Drosophila melanogaster with 4 samples.

Results

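Odorant-binding proteins are small secreted proteins that carry hydrophobic molecules, first known from the fluid around insect olfactory neurons, where they bind odorants and pheromones. Many family members are also made outside sensory organs, and some are transferred to females in the ejaculate as seminal fluid proteins. The family was taken as every gene whose FlyBase symbol is Obp followed by a digit, which gave 51 genes among the 17409 genes counted. The related gene lush, an antennal odorant-binding protein needed for the response to a male pheromone, has a symbol of another form and was kept apart.

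Poly(A) RNA of 2 tissues of adult Drosophila melanogaster males was compared, with 2 libraries for each tissue. The seminal vesicle group held the seminal vesicle, the sac in which mature sperm are stored, together with the terminal epithelium where it joins the testis. The testis group held the testis cut free of that region, in which sperm are made. All libraries came from males of the Oregon-R-modENCODE stock, aged 4 to 5 days and raised under constant light, with no mutation or treatment, and dissections on 2 consecutive days gave the 2 replicates. The number of males behind a library is not given in the sources used here. The question the design addresses is which genes distinguish the sperm-storing from the sperm-producing tissue.

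The gene counts summed to 13385256 and 11120405 in the seminal vesicle libraries and to 14088989 and 15528462 in the testis libraries. Levels below are CPM (counts scaled to a fixed library total) after TMM normalisation, and a log2 fold change is seminal vesicle minus testis with its standard error. The test is edgeR's quasi-likelihood test with adjustment over all 11737 genes tested, of which 86.6% were called at an adjusted p under 0.05, 42.1% as higher in seminal vesicle and 44.5% as higher in testis. Where a gene had a count of 0, its level could still be as high as 0.245 and 0.321 CPM in seminal vesicle replicates 1 and 2, or 0.181 and 0.175 CPM in testis replicates 1 and 2 (3 counts per library). These limits and the intervals below cover counting error only. A fold given below as at least a value sets 3 counts in place of 0 and takes the counts of the other tissue as exact, without their counting error. In whole tissues, more cells that make a transcript and more transcript per cell cannot be told apart.

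Germ cell markers separated the tissues as labelled but were also counted in the seminal vesicle. All 6 listed germ cell genes were higher in testis, with a summed level of 233 and 499.9 CPM in the seminal vesicle libraries and 4601 and 4903 CPM in the testis libraries. Accessory gland markers summed to 58.9 and 28.6 CPM in seminal vesicle replicates 1 and 2 and to 25.0 and 22.2 CPM in testis. Of 8 tested genes, 6 were above testis and 1 below it, and SP and Acp26Ab had 0 counts in both testis libraries. The testis sum was nearly all Acp95EF (15.7 and 15.0 CPM) and Acp36DE (8.56 and 6.59 CPM). In seminal vesicle these stood at 8.89 and 5.68 CPM and at 24.3 and 9.21 CPM. Ejaculatory duct markers summed to 35.0 and 14.2 CPM in seminal vesicle and to 1.81 and 1.46 CPM in testis, with 2 of 2 tested genes higher in seminal vesicle. Ejaculatory bulb markers summed to 1062 and 977 CPM in seminal vesicle, nearly all of it EbpIII, and to 31.4 and 29.7 CPM in testis, with 3 of 3 tested genes higher in seminal vesicle. The muscle list summed to 2279 and 1647 CPM in seminal vesicle and to 49.1 and 42.3 CPM in testis, with 4 of 4 genes higher in seminal vesicle. Summed levels of the fat body list were 155 and 205 CPM in seminal vesicle against 44.0 and 48.7 CPM in testis (1 of 2 tested genes higher in seminal vesicle, Fbp1 at 0 counts throughout). Most of this was apolpp, while Lsp2 stood at 1.71 and 3.21 CPM against 2.35 and 3.62 CPM and was not called. Sums of the hemocyte list were 37.1 and 38.9 CPM against 12.1 and 13.7 CPM (2 of 2 tested genes higher in seminal vesicle, He at 0 counts throughout). Most of this was srp, at 25.9 and 34.3 CPM against 9.77 and 10.6 CPM. For neurons the summed levels were 33.9 and 46.8 CPM against 24.3 and 26.4 CPM, with 2 of 4 tested genes above testis and 1 of 4 below it. The glial list was set by the sodium pump gene nrv2, at 183 and 176 CPM in seminal vesicle against 522 and 535 CPM in testis, while the defining glial gene repo stood at 1.14 and 1.07 CPM in seminal vesicle against 0.0603 and 0 CPM in testis. Of the 4 antennal markers only Snmp1 was tested, and it was higher in seminal vesicle, while the olfactory co-receptor gene Orco stayed at or under 0.482 CPM in every library and Obp83a had 0 counts. What part these other cell types have in the results below was not tested.

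The family was used unevenly. A total of 40 of the 51 genes had at least 1 count in some library, and 17 passed the filter on low counts and were tested. Of all 17409 genes, 15056 had at least 1 count and 11737 passed the filter. Among these 17 genes, seminal vesicle had the higher level for 11, testis had the higher level for 4, and 2 were not called. Over all genes tested the called shares were 42.1% and 44.5% in these directions and 86.6% in either. The genes that passed did so partly because they are high in 1 tissue, so these counts describe the 17 genes and not the family. The median log2 fold change of the 17 genes was 4.97, or 3.87 with the genes that had no count in 1 tissue placed at their bound, and the median of all tested genes was -0.11. The 17 tested genes lie on 2R (8 of 29 members), 3R (7 of 12 members), 3L (1 of 2 members) and X (1 of 6 members), while both members on 2L fell below the filter.

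**Figure D1:**
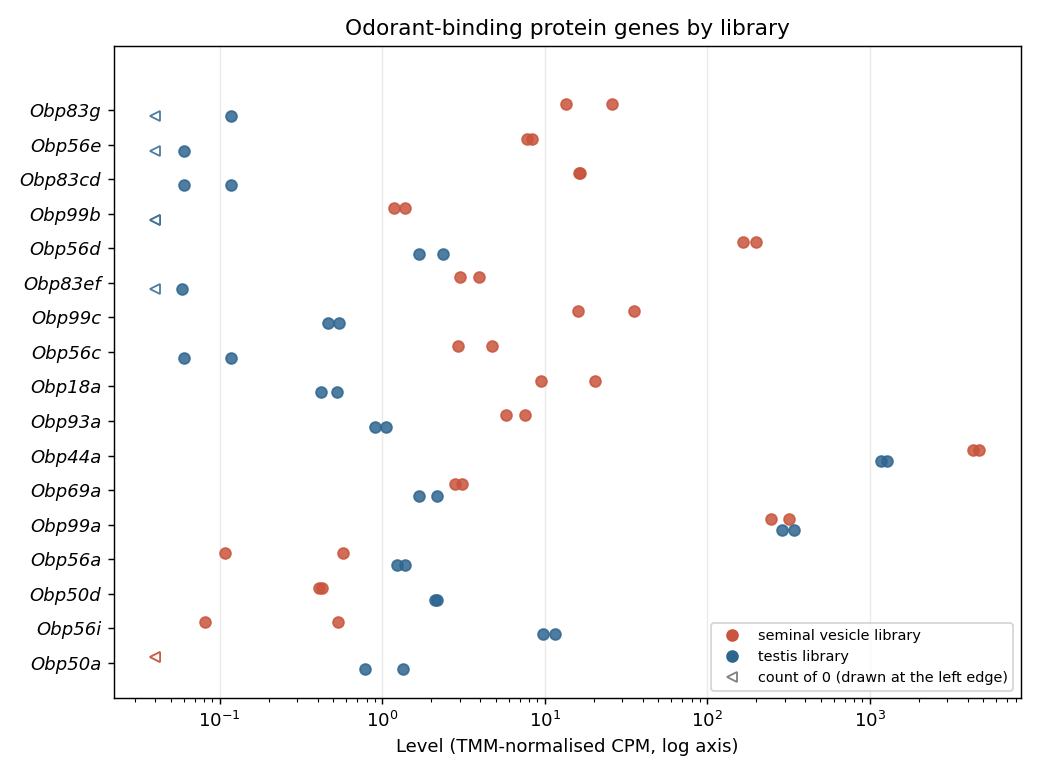
Level of each of the 17 tested Obp genes in each library (x axis, TMM-normalised CPM on a log axis), with seminal vesicle libraries drawn above testis libraries and ordered by log2 fold change. Open triangles mark a count of 0. Obp44a is the most abundant in both tissues, Obp99a overlaps between tissues, and Obp83g, Obp56e, Obp83cd, Obp99b, Obp83ef and Obp56c are at or under 0.117 CPM in both testis libraries.

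Obp44a dominated the family in both tissues and was higher in seminal vesicle. This gene, known as strongly made by glia of the nervous system, lies on arm 2R (FBgn0033268; 8134170 to 8135315, minus strand of the Release 6 assembly). Its level was 4309.9 and 4722 CPM in the seminal vesicle libraries, against 1277 and 1179 CPM in the testis libraries. The tissues did not overlap, and the log2 fold change was 1.88 ± 0.28, or 3.68-fold (edgeR adjusted p = 0.00104). It ranked 14 among all genes in seminal vesicle and 80 in testis. Among the family's reads Obp44a took 88.4% and 89.0% in the seminal vesicle libraries and 80.3% and 76.3% in the testis libraries. All 51 genes together took 0.447% and 0.446% of gene counts in seminal vesicle, against 0.187% and 0.171% in testis, and without Obp44a the mean shares were 0.0505% and 0.0387%. Scaled to the spike-in RNAs, which moved the median of all genes from -0.11 to -1.17, the difference was 0.81 and not called (edgeR adjusted p = 0.185). Its distance above the median of all genes was 1.98 there and 1.99 with TMM. A change of scaling moves all genes by about the same amount, so this distance is no check on the call. A stretch of 19.1% of the exon bases of Obp44a lies opposite exons of Pabp2, which stood at 36.2 and 32.5 CPM in seminal vesicle against 62.8 and 60.1 CPM in testis.

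**Figure D2:**
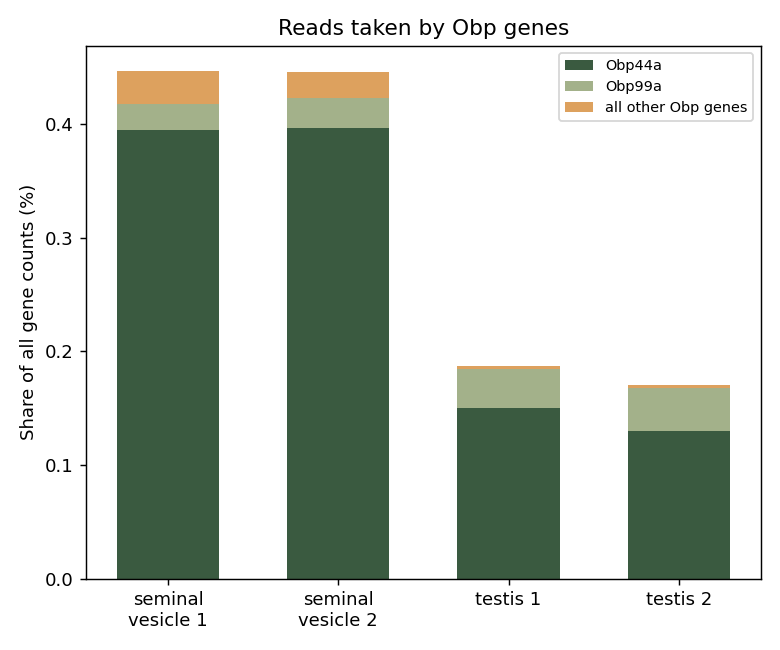
Share of all gene counts (y axis, percent) taken by Obp44a, Obp99a and all other Obp genes in each library, as stacked bars. Obp genes took 0.447% and 0.446% of gene counts in the seminal vesicle libraries and 0.187% and 0.171% in the testis libraries, most of it Obp44a.

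Obp99a, the other abundant member, did not separate the tissues. This member of the Minus-C branch of the family, which lacks some of the conserved cysteines, lies on 3R (29671657 to 29672334, plus strand). It stood at 248 and 319 CPM in seminal vesicle against 289 and 343 CPM in testis, and the ranges overlap. The log2 fold change was -0.15 ± 0.27 (edgeR adjusted p = 0.608), which does not show that the levels are alike. Without seminal vesicle replicate 2 it was -0.35 and called, and with spike-in scaling it was -1.20 and called (edgeR adjusted p = 0.0164). The distance of Obp99a from the median of all genes in that scaling, -0.03, is again no check on the call. Obp99a took 5.10% and 6.02% of the family's reads in seminal vesicle, against 18.2% and 22.2% in testis.

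The strongest seminal vesicle members after these were Obp56d, Obp99c, Obp83g, Obp83cd and Obp18a. Obp56d, known as abundant in olfactory and taste organs, stood at 200.1 and 166 CPM in seminal vesicle against 2.35 and 1.69 CPM in testis. Its log2 fold change was 6.50 ± 0.31, or 90.3-fold (edgeR adjusted p = 3.18e-05). Obp99c, another Minus-C member, had 35.4 and 16.1 CPM in seminal vesicle and 0.543 and 0.466 CPM in testis (log2 fold change 5.66 ± 0.54, edgeR adjusted p = 0.000205). Obp18a, on the X, had 20.5 and 9.43 CPM in seminal vesicle and 0.422 and 0.525 CPM in testis (log2 fold change 4.97 ± 0.53, edgeR adjusted p = 0.00031). The lowest seminal vesicle library was far above the highest testis library for each of these genes.

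The seminal vesicle libraries differed from each other by more than counting error for some of these genes. Obp99c was 2.20 times as high in seminal vesicle replicate 1 as in replicate 2 (95% counting interval 1.83 to 2.67) and Obp18a 2.17 times as high (1.70 to 2.80). Obp83g went the other way, with a ratio of 0.522 (0.426 to 0.639). The summed accessory gland and ejaculatory duct markers given above were also higher in replicate 1, as were 10 of 12 accessory gland genes (not SP and Acp98AB) and 3 of 3 duct genes. The germ cell sum was higher in replicate 2, mostly through dj and betaTub85D, with 4 of 6 genes higher there and vas and aly higher in replicate 1. Among the other lists, more genes were higher in replicate 1 for muscle (3 of 4), glia (3 of 3), antennal markers (3 of 4) and hemocytes (2 of 4). More were higher in replicate 2 for neurons (4 of 5), fat body (3 of 5) and the ejaculatory bulb (2 of 3). The part of any of these markers in the result was not tested. Without seminal vesicle replicate 1 the log2 fold change was 4.98 for Obp99c and 4.30 for Obp18a, and both stayed called in edgeR, in a fit in which the lone seminal vesicle library is assumed to vary like the testis libraries. Obp83cd had nearly equal levels in the 2 replicates, 1.01 times as high in replicate 1 (0.812 to 1.25).

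Obp83cd, Obp83ef and Obp83g, neighbours on 3R (6108134 to 6112302), were all well above the testis level in seminal vesicle. Obp83cd and Obp83ef are double-length members in which the odorant-binding fold is repeated. Counts of Obp83cd were 201 and 152 in seminal vesicle (16.4 and 16.3 CPM) against 1 and 2 in testis (0.0603 and 0.117 CPM), and the ratio of counts was 184 (95% counting interval 62.4 to 896; edgeR adjusted p = 3.12e-05). Counts of Obp83g were 166 and 242 in seminal vesicle (13.5 and 25.9 CPM) against 0 and 2 in testis, a count ratio of 319 (87.7 to 2641; edgeR adjusted p = 0.000149). Counts of Obp83ef were 37 and 37 in seminal vesicle (3.02 and 3.96 CPM) against 0 and 1 in testis, a count ratio of 116 (20.1 to 4627; edgeR adjusted p = 0.000212). With so few testis counts these ratios rest on single reads: without testis replicate 1 they were 140.2, 162 and 58.8 for Obp83cd, Obp83g and Obp83ef, and without testis replicate 2 the ratio of Obp83cd was 271 while Obp83g and Obp83ef were at least 104-fold and 18.9-fold higher in seminal vesicle (3 counts in the remaining testis library). Per kilobase of exon, in seminal vesicle, Obp83g stood at 23.8 and 45.6 CPM, Obp83cd at 18.2 and 18.1 CPM and Obp83ef at 3.35 and 4.40 CPM, so Obp83ef was the lowest of the 3 genes in both libraries. About 10.2% of the exon bases of Obp83cd and of Obp83ef lie opposite each other on the strands. The antennal genes Obp83a and Obp83b, a separate pair on the same arm that acts in pheromone-sensing hairs, were hardly counted: Obp83a had 0 counts in all libraries, and Obp83b had 0 and 0 counts in seminal vesicle against 2 and 1 in testis.

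**Figure D3:**
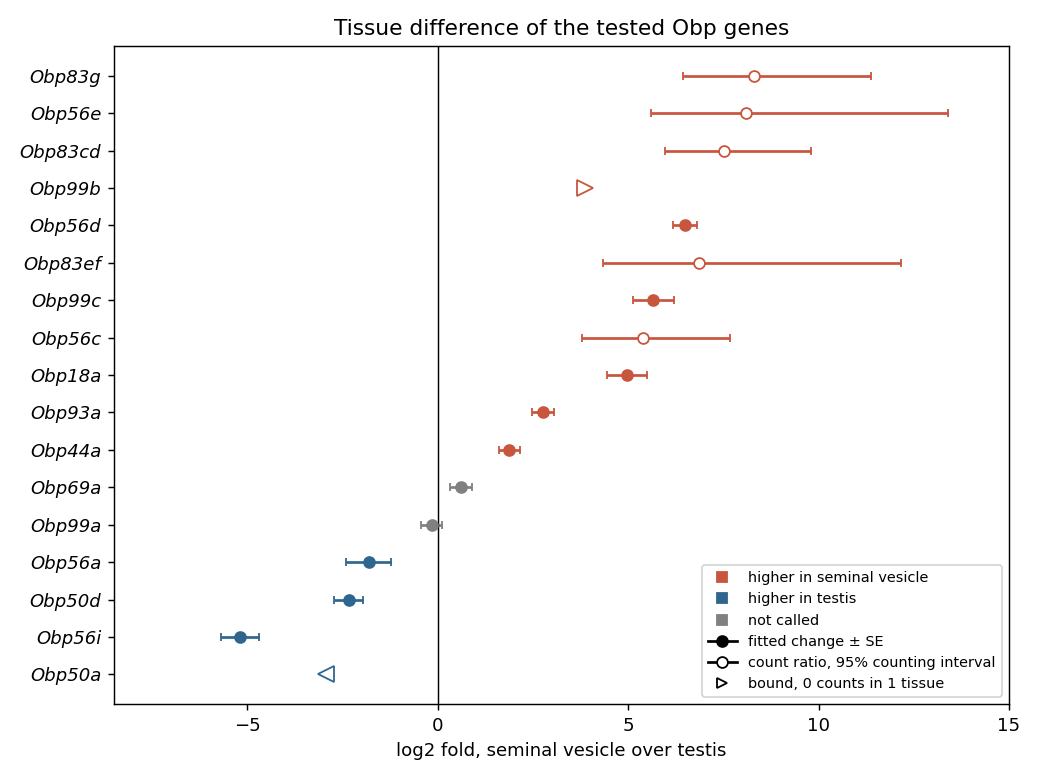
Difference of each tested Obp gene between the tissues (x axis, log2 fold, seminal vesicle over testis). Filled points are fitted changes with their SE, open circles are count ratios with their 95% counting interval for genes with 1 to 3 testis counts, and open triangles are bounds for genes with 0 counts in 1 tissue. Of the 17 genes, 11 lie to the right as higher in seminal vesicle, 4 to the left as higher in testis, and the grey points of Obp69a and Obp99a were not called.

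The Obp56 genes, the largest run of neighbouring members, split between the tissues. Obp56a to Obp56f lie within 16254 bases of 2R (19697723 to 19713976), and neighbouring members were joined into a run where no more than 20000 bases separate them. Obp56c, Obp56d and Obp56e were higher in seminal vesicle, Obp56a was higher in testis, Obp56f had 4 and 2 against 4 and 1 counts, and Obp56b had 0 counts. Obp56e, known as a seminal fluid protein, had 96 and 78 counts in seminal vesicle (7.83 and 8.35 CPM) against 1 and 0 in testis, and the ratio of counts was 272 (95% counting interval 48.2 to 10798; edgeR adjusted p = 5.86e-05). Without testis replicate 1 it was at least 46.1-fold higher, and without testis replicate 2 the ratio was 134. Exons on the other strand of Obp56e, those of asRNA:CR44509, cover 84.4% of its exon bases but had only 2 and 1 counts in seminal vesicle and 0 and 0 in testis. Obp56c had 36 and 44 counts in seminal vesicle (2.94 and 4.71 CPM) against 1 and 2 in testis, a count ratio of 41.7 (13.8 to 206; edgeR adjusted p = 0.000261). Obp56a, known from taste organs, stood at 0.571 and 0.107 CPM in seminal vesicle against 1.39 and 1.22 CPM in testis, with 7 and 1 against 23 and 21 counts. Its log2 fold change was -1.81 ± 0.59 (edgeR adjusted p = 0.0285), and this call was lost with DESeq2 (adjusted p = 0.0709), without seminal vesicle replicate 2 (log2 fold change -1.19, adjusted p = 0.0624) and without either testis library (adjusted p = 0.19 and 0.16), and its log2 fold change was -3.49 without seminal vesicle replicate 1.

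Further along the same arm, Obp56g, a seminal fluid protein of the ejaculatory bulb that is needed for the mating plug, had 12 and 5 counts in seminal vesicle against 0 and 3 in testis. Obp56h, which bears on male mating behaviour, had 10 and 6 counts in seminal vesicle against 0 and 1 in testis. Both were under 1 CPM in every library and below the filter, and both were called as higher in seminal vesicle in the fit with no filter (edgeR adjusted p = 0.0302 for Obp56g and 0.00669 for Obp56h).

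Obp56i had the highest level of the 4 testis members. It lies on 2R (FBgn0043532; 19864717 to 19868714, plus strand) and is known as a seminal fluid protein. Its counts were 1 and 5 in seminal vesicle (0.0816 and 0.536 CPM) against 191 and 167 in testis (11.5 and 9.74 CPM). The log2 fold change was -5.20 ± 0.50, or 36.8-fold higher in testis (edgeR adjusted p = 0.000208). The seminal vesicle libraries stood at 0.768% and 5.04% of its mean testis level, and their 1 and 5 counts did not differ beyond counting error (ratio of replicate 1 to replicate 2 0.152, 95% counting interval 0.00322 to 1.36). Without seminal vesicle replicate 1 the log2 fold change was -4.28 and without replicate 2 it was -6.90, and it stayed called in both fits. Per kilobase of exon Obp56i was the third highest member in testis, at 11.2 and 9.49 CPM, below Obp99a at 474 and 562 CPM and above Obp50d at 3.59 and 3.68 CPM, and its range overlapped neither.

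The Obp50 genes are a run of 5 Plus-C members (those with additional cysteines) within 5055 bases of 2R. Obp50a, Obp50d and Obp50e had more counts in testis than in seminal vesicle. Obp50d had 5 and 4 counts in seminal vesicle (0.408 and 0.428 CPM) against 35 and 37 in testis (2.11 and 2.16 CPM), with a log2 fold change of -2.33 ± 0.38 (edgeR adjusted p = 0.00158). Obp50a had 0 counts in both seminal vesicle libraries against 13 and 23 in testis (0.784 and 1.34 CPM), and was at least 7.68-fold higher in testis against 3 counts over the seminal vesicle group (edgeR adjusted p = 0.00455). That bound was 3.32-fold without seminal vesicle replicate 1 and 4.36-fold without seminal vesicle replicate 2, and without testis replicate 2 Obp50a fell below the filter. Obp50e had 0 and 0 counts in seminal vesicle against 4 and 5 in testis, below the filter, and was called as higher in testis in the fit with no filter (edgeR adjusted p = 0.0446). Obp50b and Obp50c were at 0 in all libraries, but they share all of their exon bases on the same strand, so these counts carry little information.

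**Figure D4:**
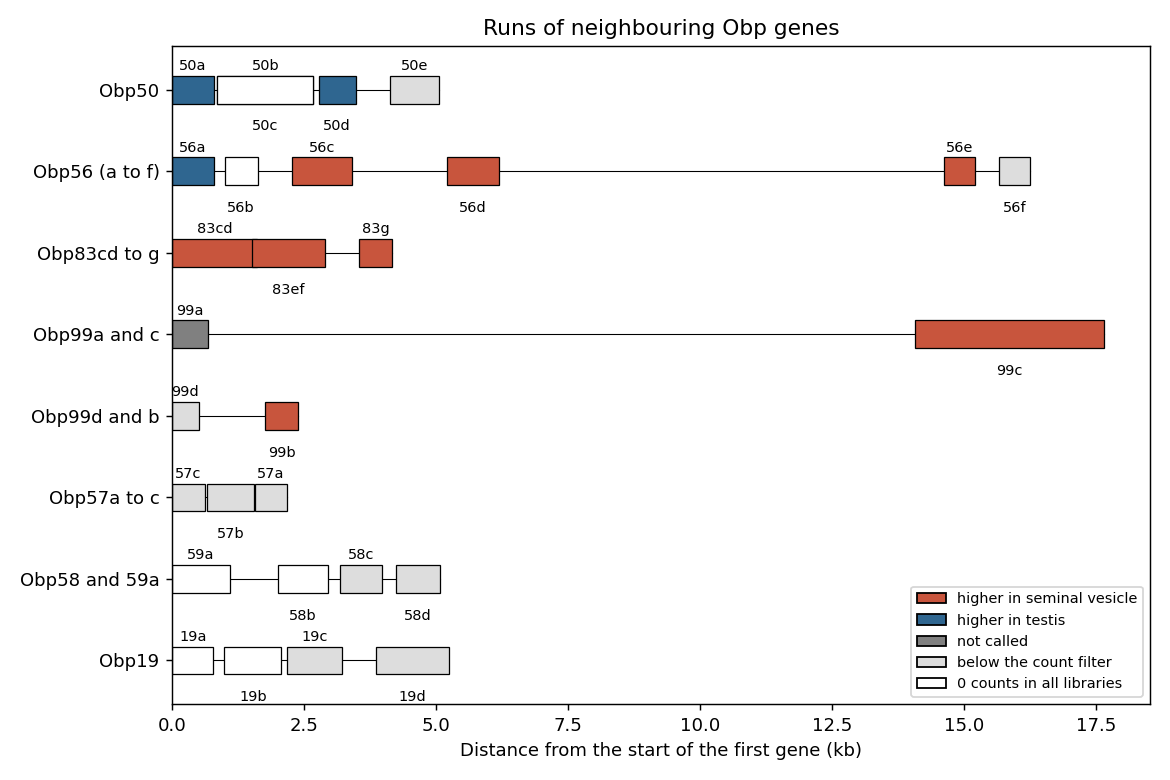
Runs of neighbouring Obp genes, drawn to scale by distance from the start of the first gene (x axis, kb) and coloured by call. All 3 genes of the Obp83cd to Obp83g run are coloured as higher in seminal vesicle, 2 genes of the Obp50 run as higher in testis, and in the Obp56 run 3 genes have the seminal vesicle colour and 1 has the testis colour. Obp50b and Obp50c occupy the same bases.

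Of the remaining tested members, Obp93a and Obp99b were higher in seminal vesicle and Obp69a was not called. Obp93a stood at 7.59 and 5.78 CPM in seminal vesicle against 0.904 and 1.05 CPM in testis (log2 fold change 2.77 ± 0.30, edgeR adjusted p = 0.000271). Exons of CG5793 on the other strand cover 83.3% of the exon bases of Obp93a, and CG5793 itself stood at 84.1 and 80.8 CPM in seminal vesicle against 71.2 and 67.1 CPM in testis and was not called (edgeR adjusted p = 0.243). Obp99b, known as a sex-specific transcript of the male fat body, had 17 and 11 counts in seminal vesicle (1.39 and 1.18 CPM) and 0 in both testis libraries, so it was at least 14.6-fold higher against 3 counts over the testis group (edgeR adjusted p = 0.00107). With a single testis library the bound was 7.41-fold without testis replicate 1 and 7.17-fold without testis replicate 2. It was 13.25-fold without seminal vesicle replicate 1, where Obp99b fell below the filter, and 15.6-fold without seminal vesicle replicate 2. Obp69a, which bears on the response of flies to a male pheromone, stood at 3.10 and 2.78 CPM in seminal vesicle against 1.69 and 2.16 CPM in testis. The tissues did not overlap for Obp69a, but it did not pass the test (log2 fold change 0.62 ± 0.29, edgeR adjusted p = 0.0911), and with spike-in scaling its sign turned, at -0.43.

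Ordered by level per kilobase of exon, Obp44a, Obp99a and Obp56d led in seminal vesicle, at 4197 ± 271, 465 ± 82.1 and 198 ± 26.2 CPM per kilobase (SD, n = 2), and none of these ranges overlapped the next. Obp99c (38.5 ± 20.4), Obp83g (34.7 ± 15.4), Obp18a (20.4 ± 10.6) and Obp83cd (18.2 ± 0.0912 CPM per kilobase) followed, and each overlapped the next in this order. In testis the order per kilobase began with Obp44a (1141 ± 64.5), Obp99a (518 ± 62.4) and Obp56i (10.4 ± 1.22 CPM per kilobase), with no overlap, followed by Obp50d and Obp69a, which overlapped at 3.63 ± 0.0572 and 3.52 ± 0.608 CPM per kilobase. Obp56d, the third in seminal vesicle, was the seventh in testis, where its 2.55 and 1.83 CPM per kilobase overlapped Obp56a at 2.53 and 2.24 CPM per kilobase.

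By known role, the members fixed as seminal fluid proteins were mostly low in both tissues. Of 7 such genes, Obp56e was higher in seminal vesicle, Obp56i was higher in testis and 5 fell below the filter. The 2 tested genes had fitted log2 fold changes of 7.71 and -5.20, so their median of 1.25 describes neither gene. Over all tested genes the median was -0.11, with 42.1% called as higher in seminal vesicle and 44.5% as higher in testis. Obp8a had 1 and 1 counts in seminal vesicle and 0 and 0 in testis, Obp51a had 1 and 0 against 0 and 0, and Obp22a had 3 and 2 against 0 and 1. Of 10 antennal genes, lush included, 3 were tested, of which Obp56d was higher in seminal vesicle and Obp69a and Obp99a were not called (median 0.62). Among the others, Obp19a, Obp59a and Obp83a were at 0, lush had 3 and 0 counts in seminal vesicle against 1 and 1 in testis, and Obp84a had 7 and 3 against 1 and 4. Obp84a lies for 81.2% of its exon bases opposite exons of Dtwd2, which had 24 and 11 against 25 and 22 counts.

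By branch of the family, 4 of 6 Minus-C members were tested, with Obp44a, Obp99b and Obp99c higher in seminal vesicle and Obp99a not called (median 3.77, or 2.87 with Obp99b at its bound). Of 13 Plus-C members 3 were tested, with Obp93a higher in seminal vesicle and Obp50a and Obp50d higher in testis (median -2.33). The 3 genes of the Obp83cd run had a median of 7.38. Of all tested genes, 42.1% were called as higher in seminal vesicle, 44.5% as higher in testis and 86.6% in either direction, and their median was -0.11. Passing the filter depended partly on a high level in either tissue, so these values describe the tested genes and not the branches.

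The 11 members at 0 counts in all 4 libraries were Obp19a, Obp19b, Obp47a, Obp47b, Obp50b, Obp50c, Obp56b, Obp57d, Obp58b, Obp59a and Obp83a. For 3 of them a count of 0 carries little information, because all exon bases of Obp50b and Obp50c lie in each other and all those of Obp57d lie in Cpr57A on the same strand, and of 101 genes lying wholly inside an exon of a gene on the same strand 0 had 10 or more counts in any library. Cpr57A was itself at 0. Obp47b lies wholly opposite exons of CG7741, which had 94 and 59 counts in seminal vesicle and 39 and 37 in testis. Among these genes, Obp19a and Obp19b are neighbours on the X, as are Obp59a and Obp58b on 2R. Obp59a is known from humidity sensing and Obp57d from the taste of fatty acids.

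The other 23 members had 1 to 24 counts in all and at most 12 in any library, or 0.979 CPM, and were removed by the filter on low counts. In the fit with no filter, 3 of the 23 genes were called as higher in seminal vesicle (Obp56g, Obp56h and Obp57c), 2 as higher in testis (Obp49a and Obp50e) and 18 were not called, against 33.9%, 36.9% and 70.8% of all 15056 genes called as higher in seminal vesicle, as higher in testis and in either direction there. Beyond those named above, Obp49a, a taste organ protein, had 2 and 0 counts in seminal vesicle against 12 and 10 in testis (edgeR adjusted p = 0.0294 with no filter). The neighbours Obp57a, Obp57b and Obp57c had 1 and 1 against 3 and 8, 1 and 3 against 5 and 3, and 5 and 7 against 2 and 0. With no filter the edgeR adjusted p was 0.164, 0.723 and 0.04, and a difference between these 3 genes was not tested. Obp58c had 5 and 1 against 3 and 3, and Obp99d 2 and 4 against 1 and 0. Obp46a, Obp57e, Obp58d, Obp73a, Obp85a and the antennal Obp28a had 0 counts in seminal vesicle and 1 to 4 in testis over both libraries. Obp19d had 2 and 2 counts in seminal vesicle and none in testis, and Obp19c had 1 and 1 against 3 and 0.

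Other secreted or membrane carriers of chemical cues, a list of 35 genes with lush, were compared in the same fit. Of 10 that passed the filter, 8 were higher in seminal vesicle and 2, Npc2f and Npc2h, were not called, against 42.1% of all tested genes higher in seminal vesicle and 86.6% called in either direction. Their median log2 fold change was 3.18. The other 25 genes were not tested, and those that passed did so partly by being high in 1 tissue, so these values describe the 10 genes and not the list. EbpIII, of the chemosensory protein family and also an ejaculatory bulb protein, stood at 1059 and 971 CPM in seminal vesicle against 30.9 and 28.9 CPM in testis (log2 fold change 5.08 ± 0.30, edgeR adjusted p = 4.14e-05). The sterol carrier gene Npc2a stood at 397 and 316 CPM in seminal vesicle against 22.3 and 20.6 CPM in testis. Snmp1, a membrane protein of the CD36 family that acts in pheromone sensing, stood at 42.7 and 26.5 CPM in seminal vesicle against 1.99 and 3.38 CPM in testis. Its relative Snmp2 stood at 59.5 and 43.3 CPM in seminal vesicle against 1.45 and 1.40 CPM in testis. Npc2b averaged 14.7 ± 1.71 CPM in seminal vesicle and 7.02 ± 0.0397 CPM in testis, and Npc2g averaged 14.7 ± 2.15 CPM in seminal vesicle and 0.295 ± 0.0769 CPM in testis (SD, n = 2 each), both higher in seminal vesicle.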

How the data were processed

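Poly(A) RNA libraries were made with a stranded kit and read from one end, per the labels' protocols, and the submitters' processing notes name HTSeq 0.6.1p1, TopHat2 2.1.0 and CASAVA 1.8.2, with no settings. The authors deposited raw counts of reads per gene for each library, mapped to FlyBase release 6.06 per the series text, with 96 spike-in rows and 5 summary rows, which entered neither library sizes nor tests. Reads in no gene, in several genes and at several places took 1.08% to 1.16%, 1.57% to 3.53% and 8.27% to 9.57% of all rows' counts. Whether counting used the strand is not given in the sources used here. At least 10 counts in a library were found for 65 of 116 genes lying inside an exon of a gene on the other strand, and for 0 of 101 on the same strand.

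Symbols and positions come from a newer annotation of the Release 6 assembly and matched 17172 of 17409 gene identifiers (98.6%), all 51 Obp genes among them. After filterByExpr (minimum count 10, minimum total 15) and TMM normalisation, counts were fitted over all genes with edgeR 4.0.16 in R 4.3.3. The steps were tested on simulated counts in which few genes were changed, as many up as down. Most tested genes were called in the data, so that simulation cannot check the scaling or the calls here. Standard errors are the log2 fold change over the square root of F. Genes with 1 to 3 counts in a tissue are given a count ratio with an exact 95% interval, and genes with 0 a bound against 3 counts. That bound takes the counts of the other tissue as exact. Members and lists were chosen with earlier results of these data known. The rule for named genes took every Obp gene at a mean of 1 CPM or more in a tissue in full and the others by counts, and carriers called at 10 CPM or more. One listed ejaculatory bulb marker matched a different gene by synonym and was left out, and 1 muscle marker was unmatched.

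That equal replicate numbers share a dissection day is inferred from the series text. Over 11737 genes, the replicate difference in seminal vesicle correlated at 0.07 with that in testis. Alternatives were other scalings, filters, DESeq2 1.42.0, limma voom (limma 3.58.1), the replicate block and each library left out.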

Additional observations from a re-analysis of the deposited data

How the results depend on the processing

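Of 194 refits of the 17 tested genes, 184 kept their direction and side of the threshold, 5 lost the call, 2 gained it and 3 turned in sign. The sign turns were Obp69a with spike-in scaling (-0.43) and Obp99a without single libraries, where values ran from -0.35 to 0.052 (0.028 without seminal vesicle replicate 1 and 0.052 without testis replicate 2); neither gene is called in the reported test. The filter of 5 CPM in 2 libraries left 9 of the 17 genes, so the number of Obp genes called was 7 toward seminal vesicle and 1 toward testis. With no filter all 40 counted genes were tested and 14 were called toward seminal vesicle and 6 toward testis, the 15 already called and 5 of the 23 below the filter. Leaving out each library in turn gave 10 to 13 genes toward seminal vesicle and 2 to 5 toward testis; without testis replicate 2 there were 2 higher in testis, since Obp50a was not tested and Obp56a not called. The replicate block gave 11 and 4 and changed no call. Genes with at most 3 counts in every library numbered 23, and genes under 10 counts in every library 31, against 11 at 0. Without Obp44a the family's share of gene counts was 0.0505% in seminal vesicle and 0.0387% in testis, and single libraries gave 0.446% to 0.447% and 0.171% to 0.187%. Each tissue had its own spike-in pool, so spike-in scaling and tissue cannot be told apart. Depth limits the 23 genes below the filter, of which 18 were not called even with no filter.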

Other observations

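Protein-coding genes beside Obp genes were called in either direction, and those below are examples. Of all tested genes 42.1% were called as higher in seminal vesicle and 44.5% as higher in testis. Whether neighbours share a call more often than other genes was not tested. In the Obp83cd run, the nearest protein-coding gene on one side, Gasp, stood at 7.40 CPM in seminal vesicle against 1.21 CPM in testis, and the nearest on the other side, Vha14-2, at 1.93 against 62.6 CPM (log2 fold change -5.03 ± 0.22, edgeR adjusted p = 3.12e-05). The nearest protein-coding gene outside the family to the right of Obp56e, CG8517, lies 1143 bases from it, beyond Obp56f. CG8517 was higher in testis, at 151 CPM in seminal vesicle against 884 CPM in testis. Obp56i and its nearest protein-coding neighbour to the right, CG13872, were both higher in testis, CG13872 at 27.3 CPM in seminal vesicle against 252 CPM in testis. The nearest to the left, CG44569, was at 0 CPM in both tissues. Obp93a was higher in seminal vesicle, while its nearest protein-coding neighbours, slmb and Ice2, were both higher in testis. Obp18a lies 238 bases from RhoGAP18B, which stood at 81.6 CPM in seminal vesicle against 3.88 CPM in testis. Obp99a lies between the channel genes ppk30 and ppk19, both higher in testis, at 1.85 and 0.418 CPM in seminal vesicle against 3.68 and 7.68 CPM in testis.

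Dup99B, a peptide gene of the ejaculatory duct, lies 876 bases from Obp99b on 3R. Dup99B stood at 15.5 and 3.11 CPM in the seminal vesicle libraries against 0.362 and 0.233 CPM in testis, and Obp99b at 1.39 and 1.18 CPM against 0 counts, so the seminal vesicle replicates differed for Dup99B but not to that extent for Obp99b. These genes were chosen after their values were seen.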
